A study of Mus musculus with 20 samples.

Results

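Induced pluripotent stem (iPS) cells titled sFB-protein-iPS were compared with embryonic stem (ES) cells titled C57-mES. All arrays with one of these titles were taken, which gave 8 of the 20 arrays of the series, 4 in each group. The series measured total RNA of mouse cells on Illumina bead arrays in 5 groups of 4 arrays. The other groups were E14-mES, GFPoct4 and FVB-sFB, and they entered the fit only as a shared estimate of the spread and as levels set beside those of the pair compared. The source field calls the sFB-protein-iPS cells mouse iPS cells and all the other groups ES cells, FVB-sFB included, although the series title speaks of skin fibroblasts. Beyond what the titles say, the labels give no strain, sex, donor, passage, clone or culture condition for either group, no treatment or allele, and no account of the word protein in the title. They also do not say whether the 4 arrays of a group came from separate cultures, so p-values measure only the spread between these arrays, which may be technical.

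ES cells are derived from the inner cell mass of the blastocyst and iPS cells from somatic cells by reprogramming factors, which can be supplied as genes, RNA or protein. Both self-renew through a network built around Oct4 (Pou5f1), Sox2 and Nanog, to which factors such as Esrrb, Klf4 and Zfp42 are added in the naive state. The inner cell mass also gives rise to primitive endoderm, the lineage of Gata6 and Sox17 that lines the yolk sac and lays down a basement membrane of laminin and type IV collagen, and mouse ES cultures are known to contain cells with some of its transcripts.

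Median raw intensity was 94.4 to 101 on the sFB-protein-iPS arrays and 104 to 128 on the C57-mES arrays. The share of probes above the background level was 48.2% to 48.8% and 49.9% to 52.3%. For that level the 1305 olfactory and vomeronasal receptor probes were taken, and on each array their 95th percentile was used. Across all genes the correlation of levels was 0.993 to 0.995 within sFB-protein-iPS, 0.994 to 0.997 within C57-mES and 0.969 to 0.971 between them. Levels below are log2 normalized intensities of 1 probe per gene, so levels of different genes cannot be set against each other. Differences are sFB-protein-iPS minus C57-mES on the log2 scale with the standard error (SE) of the fit, and n is 4 arrays per group throughout.

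The core factors of pluripotency other than Tdgf1 differed by less than 2-fold between the iPS and ES cells, while other genes differed in both directions. Higher were genes of primitive endoderm, led by Gata6, and several naive ES cell genes, led by Zfp42. Lower were Hprt, germ line genes such as Dppa3 and Rhox9, and the mesenchymal gene Acta2. Hprt, Dppa3, Rhox9 and Acta2 were each highest in C57-mES among the pluripotent groups. A gene was called at an adjusted p under 0.05 in the limma fit and a difference of at least 2-fold. Of 16593 genes 742 were called (4.47%), of which 344 were higher (2.07%) and 398 lower (2.40%) in sFB-protein-iPS. At least 4-fold apart were 51 of the higher and 75 of the lower genes, and at least 8-fold apart 8 and 20. The arrays of the groups did not overlap for any of the called genes, nor for 5308 genes in all (32.0%), most of which differed by less than 2-fold. The median difference over all genes was 0.02. The balance of higher and lower calls depended on the scaling, with 46.4% of the calls higher after quantile normalization, 24.3% after median centring (195 higher, 608 lower) and 9.96% in the authors' value table without normalization (116 higher, 1049 lower), where the median of all genes lay at -0.18. Wdr77 (1.003) lay just inside the fold minimum and Zfp420 (-0.9999) just outside.

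**Figure D1:**
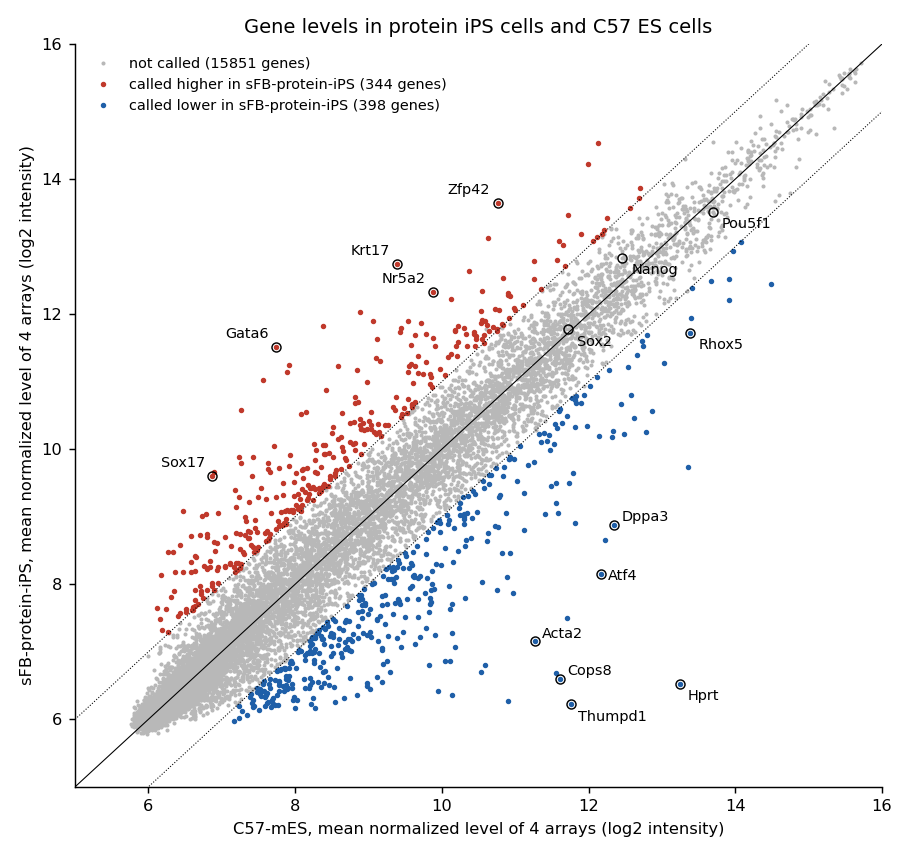
Mean normalized level (log2 intensity, 4 arrays) of each of 16593 genes in sFB-protein-iPS against C57-mES, with called genes coloured (344 higher, 398 lower) and dotted lines at a 2-fold difference. Pou5f1, Nanog and Sox2 lie near the line of equality, Gata6 far above it and Hprt far below.

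Of the factors of the core, Pou5f1, which encodes Oct4, stood at 13.75, 13.40, 13.42 and 13.47 on the iPS arrays and at 13.63, 13.71, 13.73 and 13.70 on the C57-mES arrays. The groups overlapped, and the difference was -0.18 ± 0.10 (adjusted p = 0.215). Sox2, its DNA-binding partner, overlapped as well, at 11.69 to 11.92 against 11.59 to 11.81 (0.06 ± 0.15, adjusted p = 0.834). Nanog, which stabilizes the undifferentiated state, stood at 12.77 to 12.90 against 12.37 to 12.59. Its groups did not overlap, but the difference of 0.37 ± 0.09 (adjusted p = 0.00227) was under 2-fold. Klf4 (0.79 ± 0.10, adjusted p = 1.02e-06) and Myc (0.44 ± 0.11, adjusted p = 0.00251), which with Oct4 and Sox2 make up the classical reprogramming set, also stayed under 2-fold. Of 10 core factors 1 rose and 0 fell, against 2.07% and 2.40% of all genes, with a median of 0.00. The 1 that rose was Tdgf1, the Nodal co-receptor, at 9.33, 9.04, 9.28 and 9.25 against 7.23, 7.25, 7.23 and 7.75 (1.86 ± 0.14, 3.62-fold, adjusted p = 5.58e-11). Its second probe differed by 0.66. Tdgf1 averaged 10.75 in E14-mES and 10.68 in GFPoct4, so the iPS level lay below both, and C57-mES was the lowest of the pluripotent groups.

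Of 17 naive network genes 4 (23.5%) were higher and 0 lower, against 2.07% and 2.40% of all genes, with a median of 0.37. Zfp42 (Rex1), a zinc-finger marker of undifferentiated cells, stood at 13.74, 13.69, 13.41 and 13.77 on the iPS arrays and at 10.80, 10.62, 10.76 and 10.86 on the C57-mES arrays. The groups lay far apart, with a 7.42-fold difference (2.89 ± 0.12, adjusted p = 1.67e-15). Nr5a2, a nuclear receptor that can stand in for Oct4 in reprogramming, was 5.45-fold higher (2.45 ± 0.12, adjusted p = 1.5e-14), Tcl1, a coactivator of Akt kinase, 3.5-fold (1.81 ± 0.09) and Jam2, a junction protein, 2.93-fold (1.55 ± 0.13). All 4 genes were lowest in C57-mES among the pluripotent groups. Zfp42 averaged 12.92 in both E14-mES and GFPoct4, and Tcl1 11.63 and 12.02. Esrrb (0.34 ± 0.11, adjusted p = 0.0178), Klf2 (0.20, adjusted p = 0.156) and Tbx3 (-0.01, adjusted p = 0.975) were not called. Nanog, Esrrb, Zfp42 and Pou5f1 were bright in both groups, whereas the FVB-sFB arrays had them at 6.38, 6.32, 7.23 and 6.84. These markers mark pluripotent cells and do not tell iPS cells from ES cells.

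Primitive endoderm genes held the clearest increase among the lists. Of 20 measured genes 12 were higher and 0 lower, against 2.07% of all genes, and the median difference was 1.10. Gata6, the transcription factor that specifies the lineage, stood at 11.57, 11.56, 11.54 and 11.37 on the iPS arrays and at 7.65, 7.76, 7.82 and 7.73 on the C57-mES arrays. The groups were separated by a gap many times their own width, and the 13.6-fold increase (3.77 ± 0.22, adjusted p = 4.57e-13) was the largest of the named increases. Foxq1, a forkhead factor, stood at 11.02 to 11.22 against 7.83 to 7.98 (9.48-fold, 3.25 ± 0.18, adjusted p = 1.7e-13). Sox17, an endoderm factor of the Sox family, stood at 9.55, 9.63, 9.54 and 9.67 against 6.94, 6.88, 6.71 and 6.95, where 3 of the 4 C57-mES arrays lay above background (6.62-fold, 2.73 ± 0.08, adjusted p = 2.34e-18). The related Sox7 was 3.56-fold higher (1.83 ± 0.08) and Foxa2, a pioneer factor of endoderm, at least 1.46-fold (1.03 ± 0.10), with 0 of 4 C57-mES arrays above background. Gata4, the other GATA factor of the lineage, stood at 6.90 to 7.10 against 6.65 to 6.90 and was not called (0.20 ± 0.09, adjusted p = 0.129).

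Of the structural genes of the basement membrane, Col4a1, Col4a2, Lama1 and Lamc1 were called higher, and Lamb1 and Sparc were not called. Col4a1, which encodes a chain of type IV collagen, stood at 11.97, 11.83, 11.79 and 12.01 against 9.19, 9.18, 8.98 and 8.90 (7.14-fold, 2.84 ± 0.09, adjusted p = 4.23e-18). Col4a2, the partner chain, stood at 11.35, 11.15, 11.08 and 11.32 against 8.73, 8.85, 8.42 and 8.33 (6.25-fold, 2.64 ± 0.12, adjusted p = 2.24e-15). No iPS array of either gene came within 2 log2 units of a C57-mES array. Lama1, the laminin alpha chain of embryonic basement membranes, was 5.61-fold higher (2.49 ± 0.14) and Lamc1, the gamma chain, 2.01-fold (1.01 ± 0.15). Dab2 and Amn, parts of the endocytic machinery of visceral endoderm, were 5.41-fold (2.44 ± 0.09) and 2.87-fold (1.52 ± 0.12) higher, and Pdgfra, a receptor on primitive endoderm precursors, was higher by 1.18 ± 0.12 with 2 of 4 C57-mES arrays above background. Sparc (0.47 ± 0.14, adjusted p = 0.013), Lamb1 (0.38 ± 0.13), Apoe (-0.17), Hnf4a (0.04), Sox18 (0.09), Ttr (0.30) and the yolk sac marker Afp (-0.02) were not called, and the last 3 lay below background on all 8 arrays. The summed level of the 20 genes was 39484 to 41815 on the iPS arrays and 17009 to 17328 on the C57-mES arrays, with 16714 to 18727 in E14-mES, 24727 to 26451 in GFPoct4 and 68373 to 75090 in FVB-sFB. The sum is thus not particular to endoderm, and Sparc averaged 15.35 in FVB-sFB. In bulk RNA a larger share of such cells and more RNA per cell cannot be told apart. With median centring 9 of the 20 were called, as in the unnormalized values.

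Col4a1 and Col4a2 lie head to head on chromosome 8 and share a promoter region, so their promoters, from RefSeq tables of the build GRCm38.p6, are given here from 250 bases before to 50 after each start site. Capitals mark the 78 bases that both windows share, chr8:11312777-11312854, each written on the strand of its gene, and the annotated start sites lie 21 bases apart. Col4a1 is on the minus strand (chr8:11312777-11313076) and Col4a2 on the plus strand (chr8:11312555-11312854).
Col4a1: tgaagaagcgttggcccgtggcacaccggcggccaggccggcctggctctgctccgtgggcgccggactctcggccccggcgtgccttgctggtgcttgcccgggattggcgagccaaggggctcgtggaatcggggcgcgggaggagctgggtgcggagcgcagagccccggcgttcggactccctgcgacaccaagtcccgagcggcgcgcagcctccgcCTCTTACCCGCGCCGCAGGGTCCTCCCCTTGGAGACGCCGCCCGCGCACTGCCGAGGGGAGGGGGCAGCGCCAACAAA
Col4a2: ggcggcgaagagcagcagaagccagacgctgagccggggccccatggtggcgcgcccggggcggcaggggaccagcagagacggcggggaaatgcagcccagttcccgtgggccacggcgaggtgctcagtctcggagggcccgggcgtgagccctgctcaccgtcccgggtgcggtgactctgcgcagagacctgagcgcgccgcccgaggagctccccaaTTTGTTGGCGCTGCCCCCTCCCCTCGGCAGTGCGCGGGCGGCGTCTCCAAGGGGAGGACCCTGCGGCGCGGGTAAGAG
Both genes were lowest in C57-mES, with means in E14-mES of 10.62 and 9.58, in GFPoct4 of 10.96 and 10.06 and in FVB-sFB of 13.60 and 13.25. Gata6 (7.20 in E14-mES, 8.64 in GFPoct4, 8.59 in FVB-sFB) and Sox17 (6.48, 6.82 and 6.30) were highest in sFB-protein-iPS of all groups.

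**Figure D2:**
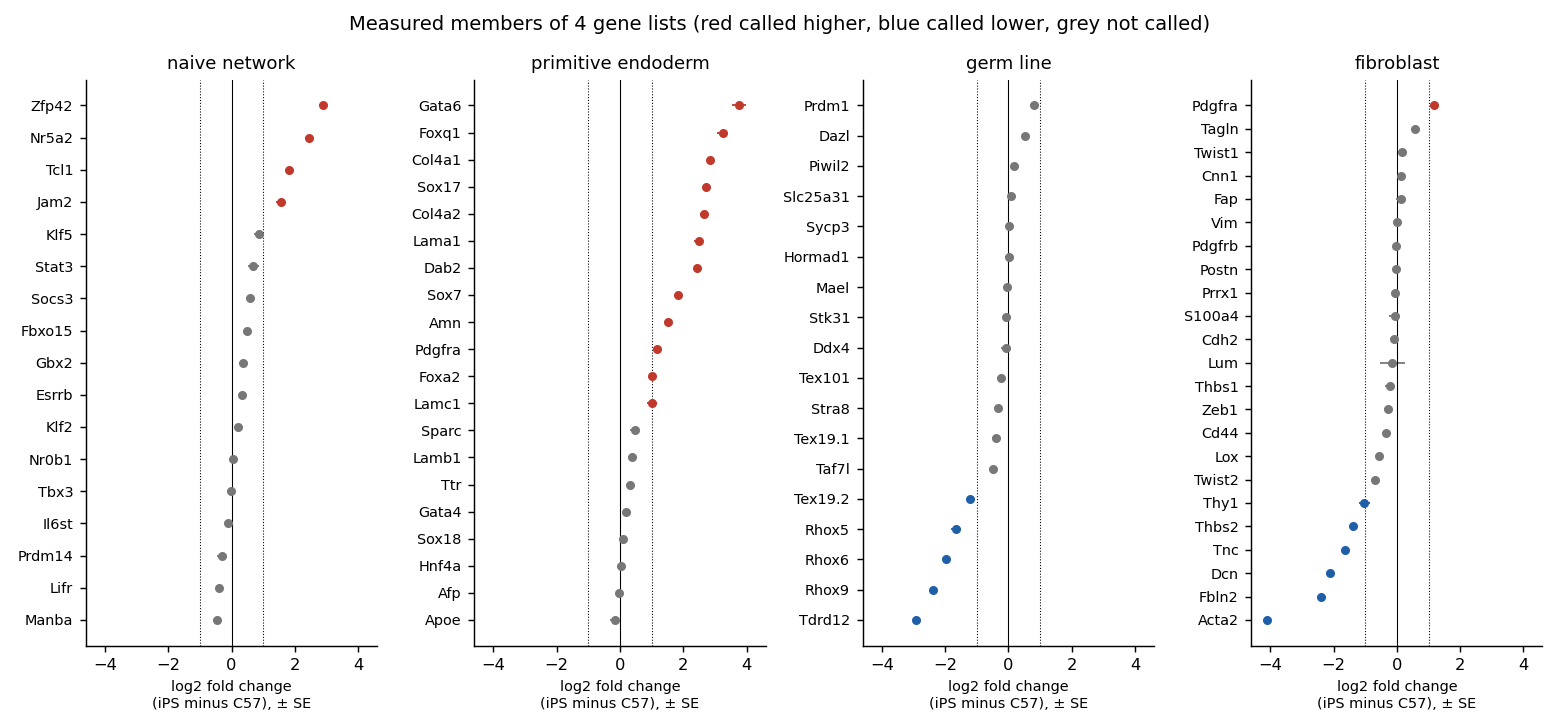
Log2 difference (sFB-protein-iPS minus C57-mES, bars ± SE of the fit) of every measured gene of 4 lists, with called genes in red or blue and dotted lines at 2-fold. Of the primitive endoderm genes 12 of 20 are higher, and in the germ line and fibroblast lists 5 and 6 genes are lower.

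The other large increases came from genes of varied function. Krt17, a keratin of epithelial appendages, stood at 12.73, 12.75, 12.77 and 12.71 against 9.26, 9.29, 9.42 and 9.58 (10.2-fold, 3.35 ± 0.10, adjusted p = 1.3e-18). Timmdc1, a complex I assembly factor, was higher by 3.46 ± 0.11 on the log2 scale, Adam23, a membrane protein of the ADAM family, by 3.46 ± 0.14, Tmem64 by 3.32 ± 0.11 and Napsa, an aspartic protease, by 3.32 ± 0.10 (9.95-fold). The probes of Napsa differed together, by 3.22 to 3.69, whereas those of Adam23 spread from 0.62 to 3.46 and those of Dmtn, an actin-bundling protein, from 0.35 to 3.15. Aqp8, a water channel, was 6.84-fold higher (2.77 ± 0.11, with 2.77 and 3.03 from its probes), Hs3st1, a heparan sulfate sulfotransferase, 5.75-fold (2.52 ± 0.09) and Tmem87a 5.75-fold (2.52 ± 0.11). Trh, the precursor of thyrotropin-releasing hormone, stood at 14.53 to 14.55 against 11.89 to 12.30 (5.28-fold, 2.40 ± 0.13).

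The largest differences of all were decreases. Hprt, which recycles purines and whose loss can be selected for in culture, stood at 6.55, 6.26, 6.28 and 7.02 on the iPS arrays and at 13.36, 13.11, 13.34 and 13.18 on the C57-mES arrays. Only the last of the iPS arrays lay above background, and Hprt was at least 82.5-fold lower (-6.72 ± 0.13, adjusted p = 2.28e-22), with -6.72 to -1.25 over its 3 probes. Thumpd1, an RNA-modification adaptor, stood at 5.97 to 6.48 against 11.63 to 11.88, with 0 of 4 iPS arrays above background, and was at least 30.2-fold lower (-5.54 ± 0.11). Cops8, a subunit of the COP9 signalosome, was at least 27.4-fold lower (6.37 to 6.72 against 11.51 to 11.69, -5.02 ± 0.10, adjusted p = 2.64e-22), while 0 of the other measured subunits were called and Cops5, the catalytic one, differed by -0.51. Emb, a chaperone of lactate transporters, was at least 16.7-fold lower (-4.63 ± 0.12). Olig1, a glial transcription factor, was at least 26.2-fold lower with 1 of 4 iPS arrays above background (-4.88 ± 0.11).

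Further down the order came Tomm22, a receptor of the mitochondrial import pore (18.5-fold lower, -4.21 ± 0.14), Apoa2, an apolipoprotein (at least 12.9-fold, -3.83 ± 0.12), Nod1, a sensor of bacterial peptides (at least 13.4-fold with 1 of 4 iPS arrays above background, -3.79 ± 0.14), and Lrrc57 (at least 9.83-fold, -3.78 ± 0.09). Psmd8, a proteasome subunit, was 11.9-fold lower (-3.57 ± 0.12) and Zfp365 at least 8.62-fold (-3.52 ± 0.11). Fastkd3, of a family that handles mitochondrial RNA, was 9.44-fold lower with 2 of 4 iPS arrays above background (-3.24 ± 0.14). Except for Hprt and Acta2, each of the 15 largest decreases rests on 1 probe. Since cell line and group coincide, less transcript and weaker binding of a probe to a sequence variant cannot be told apart for these genes. Among the 15 largest named increases, Gata6, Timmdc1, Krt17, Tmem64, Foxq1, Zfp42, Col4a1, Col4a2, Tmem87a and Hs3st1 likewise rest on 1 probe each. The same limit holds for them.

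The levels in the other groups showed which side of the pair stood apart. Hprt averaged 6.85 in E14-mES, 8.95 in GFPoct4 and 12.54 in FVB-sFB, so C57-mES was high beside both other ES groups. Unlike Hprt, which was near the C57-mES level in FVB-sFB, 3 genes were closer to the iPS level than to C57-mES in all 3 groups. These were Cops8 (7.04, 7.96 and 6.41 in the same order), Atf4 (8.08, 8.69 and 7.93) and Lrrc57 (6.17, 6.37 and 6.30). Thumpd1 (6.09, 7.42 and 10.23) and Emb (6.35, 7.31 and 12.61) were low in both other ES groups and high in FVB-sFB. Among the increases, Timmdc1 (10.76, 10.52 and 7.92) and Tmem64 (10.36, 10.68 and 9.32) were high in both other ES groups, and Krt17 was at 10.66, 9.21 and 6.01. For iPS minus E14-mES the difference was -0.45 for Cops8 (adjusted p = 0.000625), 0.07 for Atf4 (adjusted p = 0.736), 0.26 for Timmdc1 (adjusted p = 0.0568) and 4.31 for Gata6 (adjusted p = 4.19e-14). The Y-linked Eif2s3y was present in both groups compared (9.20 and 9.48) and at 6.22 in FVB-sFB, below background on its 4 arrays, and Xist overlapped between the pair (0.04 ± 0.16, adjusted p = 0.911).

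**Figure D3:**
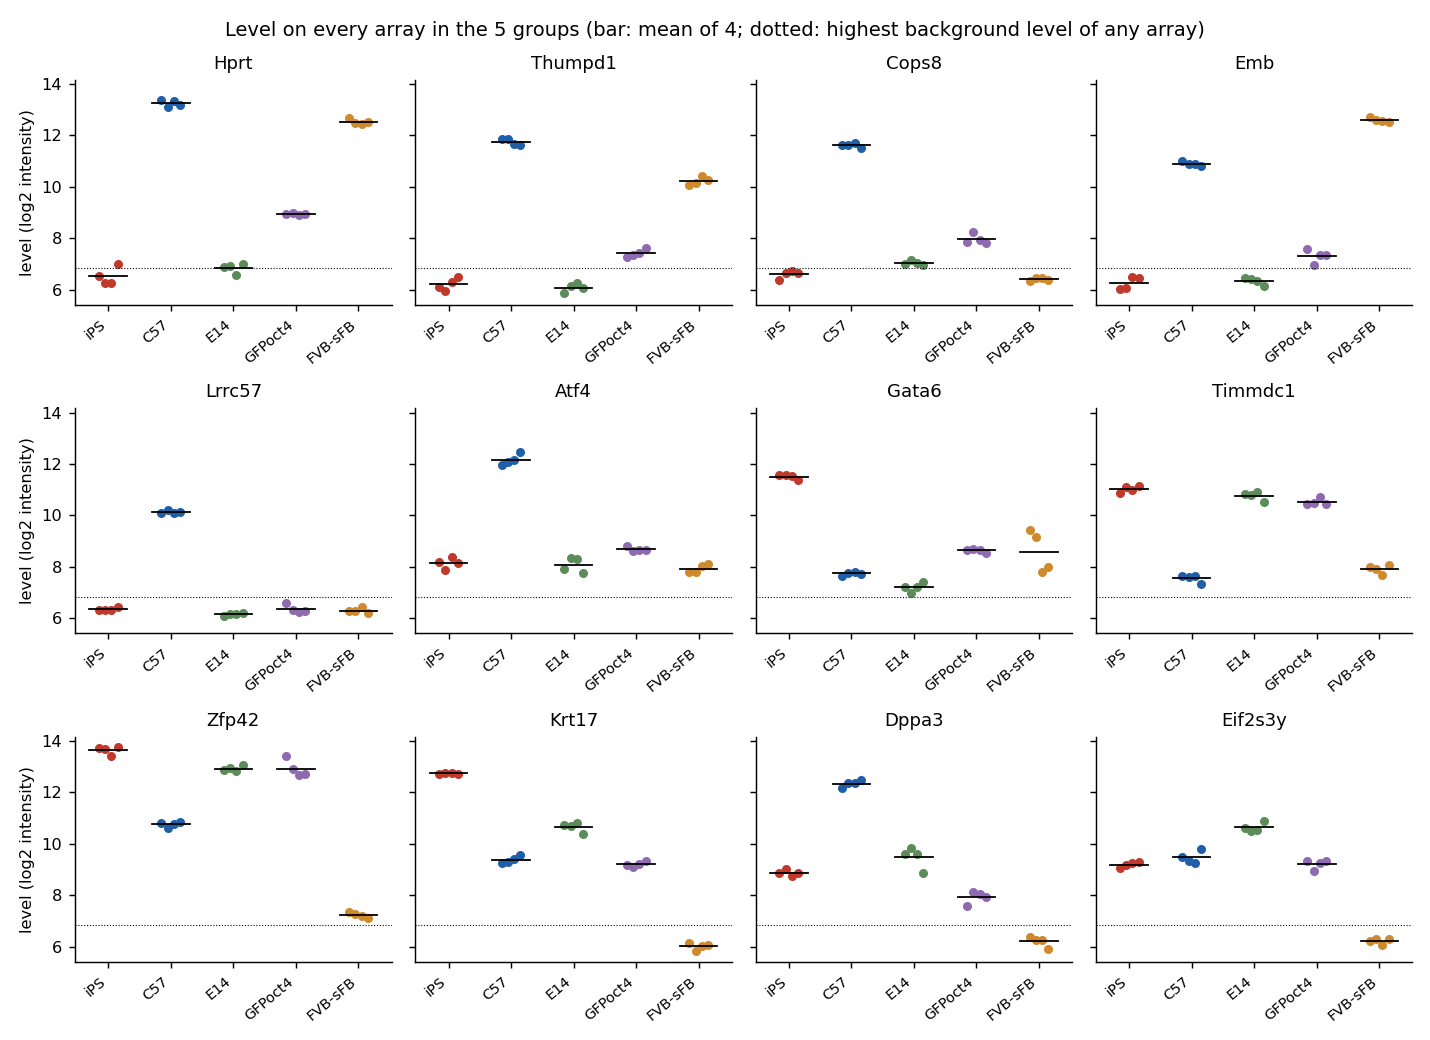
Level (log2 intensity) of 12 genes on each of the 4 arrays of the 5 groups, with the mean as a bar and the highest background level of any array as a dotted line. For Hprt, Cops8, Lrrc57 and Atf4 the C57-mES arrays are higher than the iPS, E14-mES and GFPoct4 arrays, and for Gata6 the iPS arrays are the highest.

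Over all genes, 1160 were called between sFB-protein-iPS and E14-mES (6.99%) and 1043 between sFB-protein-iPS and GFPoct4 (6.29%), comparisons that share the iPS arrays with the one described here. Of the genes, 86 lay above background on all 4 C57-mES arrays and on 0 iPS arrays and were called. Of these, 34 were also above background on 0 E14-mES arrays, 28 on 0 GFPoct4 arrays and 38 on 0 FVB-sFB arrays, while 31, 30 and 42 were above it on all 4. Another 21 genes showed the opposite, above background on all 4 iPS arrays and on 0 C57-mES arrays. These were above it on all 4 arrays of E14-mES in 13 cases, of GFPoct4 in 14 and of FVB-sFB in 7, and on 0 arrays in 6, 3 and 12. Of all 7695 genes above background on the 4 iPS arrays, the 21 were 0.27%. Of the same 7695, 1.17%, 0.92% and 6.64% were above it on 0 arrays of those groups. More than 1 probe was available for 253 of the 742 called genes, and in 196 of them all probes differed in the same direction. A second probe above background was present for 188, of which 71 met the call in the same direction and 20 had the opposite sign.

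Several germ line and early embryo genes were lower in sFB-protein-iPS than in C57-mES. Dppa3 (Stella), which protects maternal methylation in the zygote, stood at 8.87, 9.02, 8.76 and 8.87 against 12.16, 12.35, 12.37 and 12.50 (11.1-fold lower, -3.47 ± 0.16, adjusted p = 4.22e-15). It was the only called gene of 13 in its list (7.69%, against 2.40% of all genes), and Dppa4 (-0.04) and Dppa5a (-0.05) differed by little. Of 18 germ line genes 5 were lower and 0 higher, against 2.40% of all genes, with a median of -0.17. Tdrd12, of the piRNA pathway, stood at 8.71 to 9.01 against 11.75 to 11.88 (7.5-fold lower, -2.91 ± 0.09, adjusted p = 1.3e-18). The homeobox genes of the X-linked Rhox cluster were Rhox9 (5.17-fold, -2.37 ± 0.12), Rhox6 (3.96-fold, -1.99 ± 0.11) and Rhox5 (3.15-fold, -1.65 ± 0.16), whose copies resemble each other and may share probe signal, and Tex19.2 was 2.3-fold lower (-1.20 ± 0.12). The groups did not overlap for any of these 5. C57-mES was the highest of the pluripotent groups for Dppa3 and for all 5. In E14-mES and GFPoct4 Dppa3 averaged 9.48 and 7.93, beside 8.88 in sFB-protein-iPS. The iPS means of Rhox9 (9.04, against 8.62 and 7.78), Rhox6 (7.51, against 6.89 and 6.33) and Rhox5 (11.73, against 8.83 and 10.35) lay above both. That of Tex19.2 (8.78, against 8.71 and 8.20) lay near E14-mES, and that of Tdrd12 lay below both (8.90, against 9.95 and 9.32). Dazl (0.53) and Piwil2 (0.18) were not called, and meiotic genes such as Sycp3 and Stra8 lay below background on all 8 arrays.

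Rhox5, Rhox6 and Rhox9 are among the genes that DNA methylation is known to silence. Whether methylation bears on their levels here was not tested. Of 12 genes for DNA methylation and its removal 2 (16.7%) were lower and 0 higher, with a median of -0.38. Of all genes 2.40% were lower and 2.07% higher. Dnmt3b, a de novo methyltransferase, stood at 12.45 to 12.53 against 13.59 to 13.73 (2.27-fold lower, -1.18 ± 0.07, adjusted p = 2.48e-12), its second probe differed by -0.72, and the call was lost with the mean of all probes. Its cofactor Dnmt3l differed by -0.96 and Dnmt1 by -0.34 (adjusted p = 0.19), both short of the call. Gadd45g, a stress protein, was 4.69-fold lower (-2.23 ± 0.13). Of 19 Polycomb genes 1 (5.26%) was lower, Phc1, at 12.42 to 12.67 against 13.88 to 13.93 (2.62-fold, -1.39 ± 0.10). Suz12 (-0.86) and Ezh2 (-0.73) were not called.

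Of 31 imprinted genes 5 (16.1%) were lower and 2 (6.45%) higher, against 2.40% and 2.07% of all genes, with a median of 0.07. Igf2, a paternally expressed growth factor, stood at 10.46, 10.44, 10.45 and 10.50 against 12.60, 12.61, 12.62 and 12.66, which is a tight pair of groups 4.47-fold apart (-2.16 ± 0.24, adjusted p = 8.01e-08). Peg3 was at least 3.23-fold lower with 0 of 4 iPS arrays above background (-2.05 ± 0.14), Dlk1 3.52-fold (-1.82 ± 0.14), the CDK inhibitor gene Cdkn1c 2.82-fold (-1.49 ± 0.09) and Dcn at least 3.72-fold with 1 of 4 iPS arrays above background (-2.13 ± 0.11). Impact (1.03 ± 0.10) and Ube3a (1.02 ± 0.12) were higher. Dlk1 averaged 6.46 in E14-mES and 10.58 in GFPoct4, beside 7.22 in sFB-protein-iPS and 9.03 in C57-mES. Peg3 averaged 6.89 and 6.83 and Igf2 9.26 and 10.40, which left C57-mES the highest of the pluripotent groups for both.

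Markers of fibroblasts, which are also the usual feeder cells of ES cultures, were far below the FVB-sFB level in both groups, and some were lower in the iPS cells. Of 23 genes 6 (26.1%) were lower and 1, Pdgfra, was higher, against 2.40% and 2.07% of all genes, with a median of -0.14. Acta2, smooth muscle actin, stood at 7.01, 7.13, 7.07 and 7.40 against 11.28, 11.19, 11.41 and 11.17 (17.3-fold lower, -4.11 ± 0.09, adjusted p = 4.67e-21, with -4.11 to -0.97 over 4 probes). Fbln2, a matrix glycoprotein, was 5.24-fold lower with 3 of 4 iPS arrays above background (-2.39 ± 0.14), Dcn as given above, Tnc at least 2.21-fold (-1.65 ± 0.11), and Thbs2 at least 1.68-fold (-1.39 ± 0.13). Thy1, a surface protein typical of fibroblasts, was 2.04-fold lower (-1.03 ± 0.17, adjusted p = 3.93e-05). The call of Thy1 was lost without C57-mES replicate 2 (-0.9995) and without background correction (-0.9989), and with the mean of all probes 4 of the 6 remained. Col1a1, the main collagen of fibroblasts, had 0 of 4 iPS and 2 of 4 C57-mES arrays above background (-0.23 ± 0.11, adjusted p = 0.112), Col1a2 and Col3a1 lay below it on all 8, and Vim did not differ by more than its error (0.02 ± 0.12). The summed level of the 23 genes was 4707 to 5024 in sFB-protein-iPS, 8449 to 8862 in C57-mES, 3610 to 3912 in E14-mES, 12716 to 13242 in GFPoct4 and 253845 to 287402 in FVB-sFB, and its part in the other differences was not tested.

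Markers of other cell types were called one at a time, in lists so short that 1 gene is a larger share than the 2.07% higher and 2.40% lower of all genes. Of 16 macrophage and leukocyte markers 0 were called and 11 lay below background on all 8 arrays, Ptprc, Adgre1 and Itgam among them. Of 12 endothelial markers 1 was called, Vwf (1.17), of 11 muscle markers 1, Myl4 (-1.22), of 13 keratinocyte markers Lor (1.40) and Krtdap (-1.24), and of 7 melanocyte and Schwann cell markers Pmel (1.64) and Mlana (-1.81). Collagens and other matrix genes had 2 higher and 2 lower of 20. Serpinh1, the collagen chaperone, was 4.65-fold higher (2.22 ± 0.10) and Plaur, the urokinase receptor, 4.06-fold (2.02 ± 0.11), while Bgn (-1.40 ± 0.11) and Mgp (-1.04 ± 0.16) were lower, the latter with no call without iPS replicates 1 or 2 or C57-mES replicate 4, without background correction, after median centring or with the 8 arrays normalized alone. The call of Vwf was lost after median centring and in the value table. Of 24 Hox genes, the positional genes of the body axis, 0 were called and 10 lay below background on all 8 arrays.

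Genes of the amino acid stress response split. Of 33 genes 5 (15.2%) were lower and 2 (6.06%) higher, against 2.40% and 2.07% of all genes, with a median of 0.17. Atf4, its central transcription factor, stood at 8.19, 7.86, 8.38 and 8.16 against 11.97, 12.06, 12.15 and 12.48 (16.2-fold lower, -4.02 ± 0.14, adjusted p = 1.09e-17, 1 probe). Chac1, which degrades glutathione, was 4.4-fold lower (-2.14 ± 0.13), Nupr1, a stress-induced chromatin protein, 2.65-fold (-1.40 ± 0.21), Stc2, a secreted glycoprotein, 2.5-fold (-1.32 ± 0.13) and Ddit4, an inhibitor of mTOR signalling, 2.16-fold (-1.11 ± 0.10). Aldh1l2, of mitochondrial folate metabolism, was 3.31-fold higher (1.73 ± 0.09, with 3 of 4 C57-mES arrays above background) and Atf3 2.04-fold (1.03 ± 0.10), a call lost without iPS replicate 1 or 3, without background correction, with the 8 arrays normalized alone and in both other scalings (median centring and the value table). Other known targets of the pathway differed by less than 2-fold, in either direction. Asns, asparagine synthetase, differed by 0.54 ± 0.12 (adjusted p = 0.000873), Trib3 by -0.68 ± 0.14 (adjusted p = 0.000596) and Ddit3 by -0.08 (adjusted p = 0.786).

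In metabolism, 2 of 29 glycolysis genes were lower (6.90%), against 2.40% of all genes. Pkm, pyruvate kinase, stood at 12.56, 12.38, 12.38 and 12.43 against 14.59, 14.58, 14.40 and 14.38 (4.13-fold lower, -2.05 ± 0.09), and Pygb, glycogen phosphorylase, was at least 4.37-fold lower with 1 of 4 iPS arrays above background (-2.48 ± 0.13). Of 29 glutathione and redox genes 4 (13.8%) were higher and 1 (3.45%) lower, against 2.07% and 2.40% of all genes. Srxn1, sulfiredoxin, was 2.59-fold higher (1.37 ± 0.10), Glrx 2.19-fold, Cat 2.1-fold and Hmox1 2.09-fold, and Gsto1 2.19-fold lower. The calls of Glrx, Cat and Hmox1 were lost after median centring and in the value table, and that of Srxn1 in the value table. Cholesterol synthesis had 1 higher (Stard4, 1.13) and 1 lower (Dhcr7, -1.24) of 18, or 5.56% each. The call of Stard4 was lost after median centring and in the value table. Oxidative phosphorylation and endoplasmic reticulum chaperones had 0 called, of 30 and 16. Among 27 proteasome and 36 ribosomal protein genes 1 each was lower (3.70% and 2.78%), shares near the 2.40% of all genes. These were Psmb5 (-1.78 ± 0.20) and Rpl29 (-1.70 ± 0.19, with -5.01 from its other probe, in a family with many processed copies).

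Growth control genes differed at single members. Of 21 genes of p53 and the CDK inhibitors 3 (14.3%) were lower and 0 higher, with a median of -0.23. Of all genes 2.40% were lower and 2.07% higher. Pmaip1 (Noxa), a trigger of apoptosis, averaged 7.36 ± 0.10 against 9.78 ± 0.10 (SD; 5.38-fold lower, -2.43 ± 0.12), and Cdkn2b, an inhibitor of the G1 kinases, was at least 2.56-fold lower with 0 of 4 iPS arrays above background (-1.73 ± 0.10). E2f2 (1.22 ± 0.17, with -0.02 to 1.27 over 3 probes) was the only call of 19 G1 cyclin and Rb genes (5.26%). Its call was lost after median centring, in the value table and with the mean of all probes. Of 26 DNA replication and 22 mitosis genes 0 were called, with medians of -0.27 and -0.40.

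Signalling lists held few called genes, at ligands, receptors and targets. The lists are so short that 1 gene is a larger share than the 2.07% higher and 2.40% lower of all genes. In the FGF list below, 1 gene each way was 4.55%. Of 13 Nodal pathway genes 2 were higher, Tdgf1 and the antagonist Lefty2 (2.97-fold, 1.57 ± 0.11), and Lefty1 (0.91) and Nodal itself (0.04) were not called. Both Tdgf1 and Lefty2 were lowest in C57-mES among the pluripotent groups. Lefty2 averaged 9.84 in sFB-protein-iPS and 8.27 in C57-mES, beside 10.13 in E14-mES and 10.80 in GFPoct4. Of 17 BMP genes 2 were higher and 2 lower. Id1, a direct BMP target, stood at 11.67 to 12.04 against 9.43 to 9.65 (5.11-fold higher, 2.35 ± 0.15) and Id4 was 3.02-fold higher (1.59 ± 0.17, with 3 of 4 C57-mES arrays above background), while the ligand Bmp7 was 2.37-fold lower (-1.24 ± 0.13, with 3 of 4 iPS arrays above background), the antagonist Grem1 at least 1.84-fold (-1.14 ± 0.21), and Id3 was not called (-0.57). Of 17 Wnt genes the antagonist Sfrp1 was higher (3.53-fold, 1.82 ± 0.09), and the ligand Wnt7b (-1.26 ± 0.11) and Porcn (-1.13 ± 0.10), which acylates Wnt ligands, were lower. Of 22 genes of FGF signalling and its feedback Phlda1 was higher (3.25-fold, 1.70 ± 0.12) and the receptor Fgfr2 at least 2.09-fold lower, and Dusp6 (0.32, adjusted p = 0.112) was not called. Of 22 immediate early genes Atf3 and Arc (4.96-fold, 2.31 ± 0.08) were higher, and of 24 heparan sulfate genes Hs3st1 and Sulf1 (1.21). Calls were lost for Sulf1 after median centring and in the value table, for Id4 in the value table, for Grem1 with the 8 arrays normalized alone, and for Fgfr2 and Porcn with the mean of all probes.

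Of 16 primed epiblast and neural genes 3 (18.8%) were lower, against 2.40% of all genes, namely Olig1, Dnmt3b and the Notch ligand Dll1 (2.76-fold, -1.47 ± 0.09), while Otx2 (-0.34) was not called and Fgf5 lay below background on all 8 arrays. Of 21 mesoderm and streak genes 1 (4.76%), Lefty2, was higher, against 2.07% of all genes. Of 17 trophoblast genes 3 (17.6%) were lower and 1 (5.88%) higher, against 2.40% and 2.07% of all genes. Gata3 was at least 2.97-fold lower (-1.70 ± 0.10) and Tfap2c, which is also active in naive and germ cells, 2.73-fold (-1.45 ± 0.08, with -2.43 to -1.44 over 3 probes), and Tead4, a factor of the trophectoderm, was 3.15-fold higher (1.66 ± 0.09). The placental prolactin family genes Prl2c3 (-2.52 ± 0.30) and Prl2c4 (-2.48 ± 0.30) were lower, but these are near-identical copies whose signals may be shared. By group mean Prl2c3 was brightest in FVB-sFB (13.51), followed by GFPoct4 (12.82), C57-mES (10.54), sFB-protein-iPS (8.03) and E14-mES (6.28), so its level is not particular to trophoblast. The FVB-sFB arrays were uneven, at 14.50, 14.54, 12.48 and 12.50, and replicates 3 and 4 lay below the GFPoct4 arrays (12.61 to 12.98). Of 23 epithelial and keratin genes Krt17, Lor and Esrp1 (1.34) were higher, of 32 interferon and MHC class I genes Ifitm1 (1.09, with -0.83 to 1.09 over 3 probes), of 22 integrin and adhesion genes Itgb1 (1.11), and of 13 X- and Y-linked genes Mid1 (1.43) with Hprt lower. The call of Itgb1 was lost without iPS replicate 1, with the mean of all probes, after median centring and in the value table, that of Ifitm1 in the last 2, and those of Lor, Esrp1 and Mid1 in the value table.

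**Figure D4:**
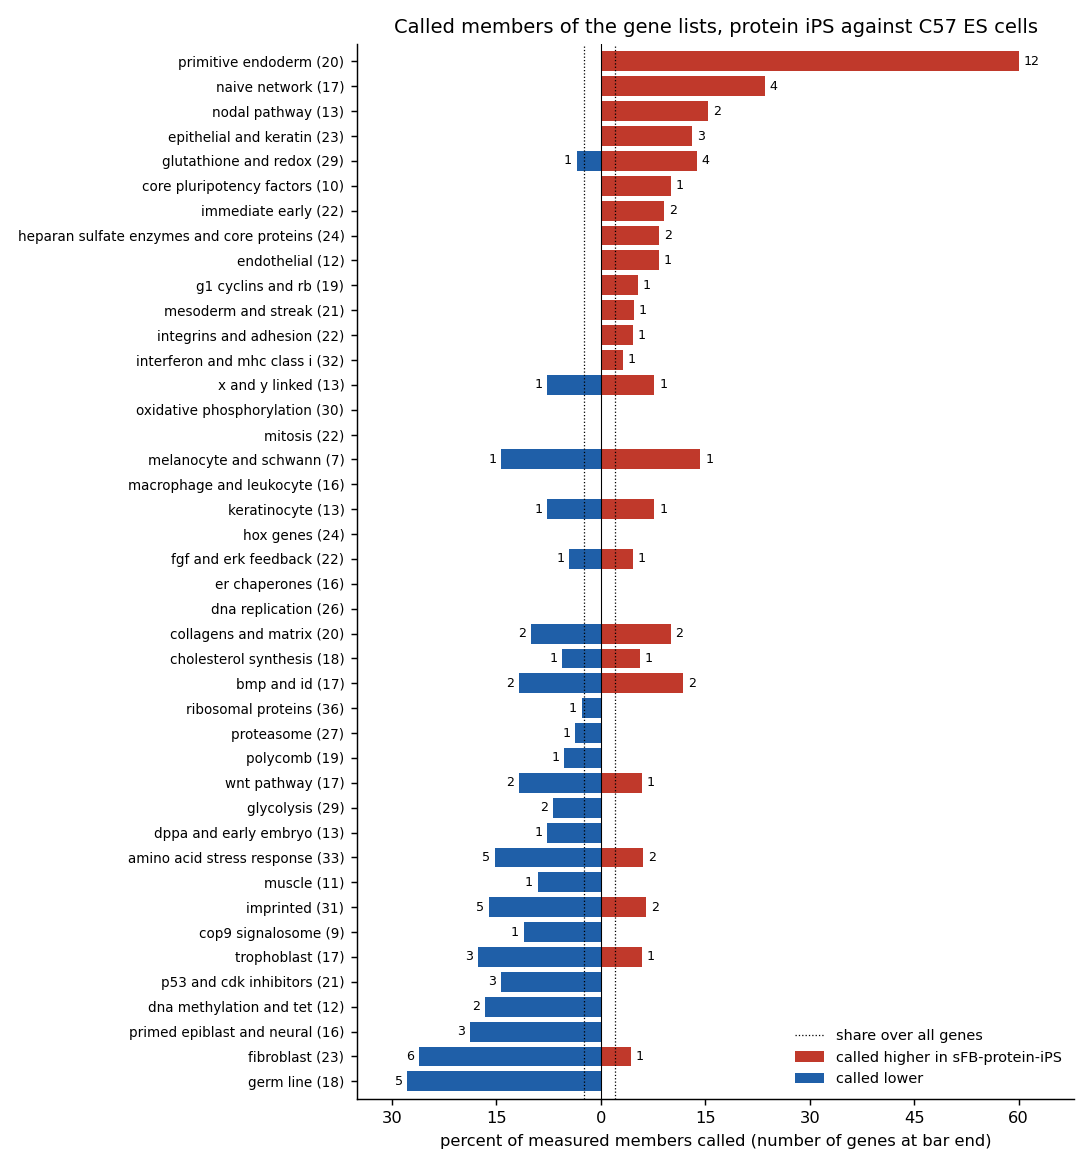
Percent of the measured members of each of 42 gene lists called higher (right) or lower (left) in sFB-protein-iPS than in C57-mES, with the number of genes at the bar ends and dotted lines at the share over all genes (2.07% and 2.40%). Primitive endoderm reaches furthest to the right, and the germ line and fibroblast lists reach furthest to the left.

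The difference between the groups also varied by chromosome, a pattern chosen after the values were seen and given here without a test. Of 7400 genes above background on all 8 arrays 290 were called higher (3.92%) and 259 lower (3.50%), and the median difference was 0.03. It was 0.30 for the 398 genes on chromosome 8, of which 33 were called higher (8.29%) and 6 lower (1.51%). For the 250 genes on chromosome 14 the median was 0.17 (19 or 7.6% higher, 9 or 3.6% lower). On chromosome 11 it was -0.14 for 666 genes (16 or 2.40% higher, 33 or 4.95% lower). The other chromosomes lay between -0.01 and 0.07. The median against the other chromosomes was 0.30, 0.28, 0.27 and 0.31 on the iPS arrays for chromosome 8, so each array showed the shift. For C57-mES minus E14-mES the medians on chromosomes 8 and 11 were -0.19 and 0.16, for C57-mES minus GFPoct4 -0.29 and 0.19, for iPS minus E14-mES 0.14 and -0.0009, and for iPS minus GFPoct4 0.05 and 0.03. On chromosome 14 the medians in the same order were -0.05, -0.04, 0.11 and 0.13, so there the iPS side lay further from the other ES groups. After median centring the median difference of the pair was 0.08 on chromosome 8, -0.02 on 14 and -0.35 on 11, against -0.17 over all 7400 genes. Zfp42, Col4a1, Col4a2, Sfrp1, Hmox1 and Itgb1 lie on chromosome 8, with differences of 1.07 to 2.89.

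**Figure D5:**
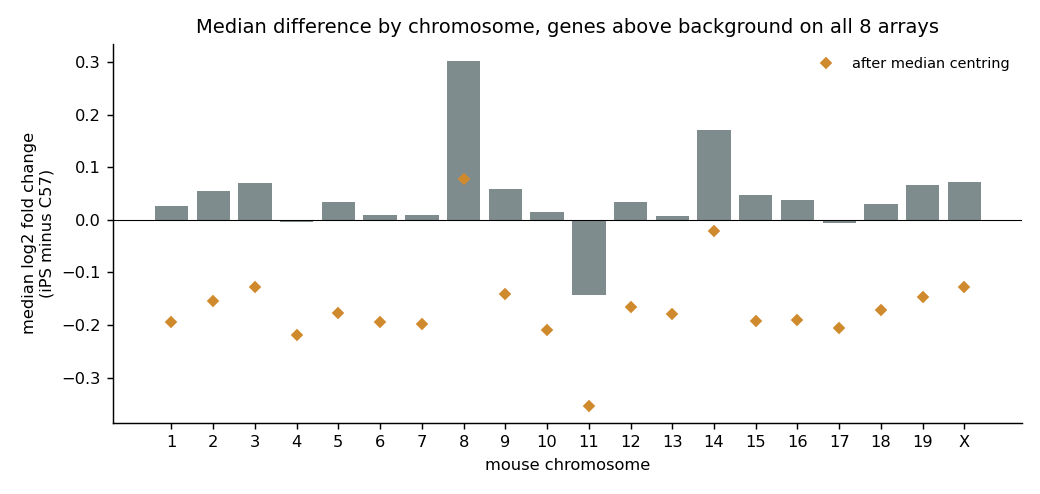
Median log2 difference (sFB-protein-iPS minus C57-mES) of the genes above background on all 8 arrays, by mouse chromosome, as bars after quantile normalization and diamonds after median centring. Chromosome 8 is highest (0.30), followed by 14 (0.17), and chromosome 11 is lowest (-0.14).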

How the data were processed

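Per the labels' protocols, 500 ng of total RNA was amplified into biotin-labelled cRNA for Illumina mouse bead arrays. Probe values were exported with BeadStudio, per the submitters' processing notes, with no version given. The deposited table holds intensity on a linear scale without stated background correction or normalization, and 0 of its sample columns were unused. The authors' deposited value table is the log2 of that intensity to within 5e-09 and is thus not normalized between arrays. Detection p-values, slide positions and dates were not used here. Precision is limited by how many arrays there are.

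Intensities were corrected with normexp (offset 50), quantile-normalized over all 20 arrays and put on the log2 scale (R 4.3.3, limma 3.58.1). There were 25697 probes, 23978 with 1 gene symbol, 1719 with none and 0 with several, and 23962 matched RefSeq (GRCm38.p6) by gene ID. The brightest of a gene's probes stood for each of 16593 genes. One model with 5 groups (15 residual degrees of freedom) was fitted in limma, with Benjamini-Hochberg adjustment over all genes. Where the mean of the dim group lay below background, the fold is a lower bound, taken on each array against the background level or, where higher, the dim probe itself. Fold changes of dim genes are understated by the offset.

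Named genes are the 15 largest increases and decreases among called genes without overlap (no predicted, clone or RIKEN names), up to 5 called members of each of 42 lists (840 of 939 entries measured), fixed pluripotency, fibroblast and X-linked genes, and neighbours of the fold minimum. Other list members, Eif2s3y, Esrrb, Gata4, Trh, Id3, Asns, Trib3, Prl2c4, Col1a2, Col3a1 and Lefty1 were named after their values were seen. The groups, lists and receptor probe set were chosen with earlier results of these data known. The replicate numbers were not treated as pairs, since arrays of the same number had correlations of deviations of -0.14 to 0.05, with 0 of 4 above 0.1. The fit was tested on simulated data. Alternatives covered background correction, normalization, offset, probe choice, dim probes, samples in the fit, array weights, a replicate block and leaving out each array.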

Additional observations from a re-analysis of the deposited data

Results flagged for a closer look

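In 14 of 246 groups of 4 arrays (5.69%) the outermost array stood apart from the other 3 beyond the 95% critical value of Dixon's gap test, a criterion that chance meets in about 5% of groups. Among primitive endoderm genes, Gata6 was lowest on iPS replicate 4 (11.37, against 11.54 to 11.57 on the others), and Gata4 on C57-mES replicate 4 (6.65, against 6.87 to 6.90). C57-mES replicate 4 was also apart for Timmdc1 (7.32, against 7.62 to 7.66), Tdgf1 (7.75, against 7.23 to 7.25), Gata3 (8.15, against 8.49 to 8.51) and Peg3 (8.15, against 8.62 to 8.71). C57-mES replicate 1 was apart for Adam23 (8.45, against 8.34 to 8.36), Dll1 (8.77, against 8.87 to 8.88) and Ifitm1 (7.78, against 7.90 to 7.92), and C57-mES replicate 3 for Pygb (9.04, against 8.95). On the iPS side replicate 4 was apart for Tmem87a (9.70, against 9.81 to 9.83), Lrrc57 (6.45, against 6.32 to 6.34) and Srxn1 (11.03, against 11.14 to 11.16), and replicate 3 for Id4 (8.70, against 8.41 to 8.44).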

How the results depend on the processing

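The 742 calls became 685 without background correction, 665 with the 8 arrays normalized alone, 602 with the mean of all probes, 747 with array weights, 983 with an offset of 16, and 734 to 753 with 1 array left out. Fitting the replicate number as a block left 742. After median centring 195 were higher and 608 lower. The value table gave 1165 calls, 116 higher and 1049 lower. No called gene reversed its sign under any of these, except 3 with the mean of all probes, among them Ifitm1 (-0.028). Of 105 named and called genes 80 kept the call under all 19 alternatives. Sign changes without a call were Sox2 (-0.15 with median centring, -0.39 in the value table), and in the value table Nanog (-0.043), Xist (-0.16) and Gata4 (-0.11). Col1a2 lay at 0.067 with median centring. With 1 array left out Xist ranged from -0.028 (without iPS replicate 4) to 0.098 and Col1a2 from -0.090 to 0.052 (without iPS replicate 3). The cause was not tested. The primitive endoderm count was 9 to 12, the naive 4, the germ line 5, the imprinted 5 to 6 and the fibroblast 4 to 7. Genes near background have only bounds. Slides could not be fitted as a block.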
